A study of Nothobranchius furzeri with 10 samples.

Results

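The 200 genes described here are the steadiest of the moderately expressed genes in killifish liver: they changed least from library to library. RNA was sequenced from livers of male Nothobranchius furzeri of strain GRZ, an inbred line of the turquoise killifish, which lives in seasonal ponds and ages fast; the fish were 10 weeks old. All 10 libraries carry the same perturbation label, swim-tunnel, that is, swimming against flowing water, so they form 1 group with no resting fish to compare with. Libraries are called 1 to 10 as names only, and the labels do not say whether each came from its own fish, so the spread between them may be partly technical. Because whole livers were sequenced, fewer cells of a type and less RNA per cell cannot be told apart in any value below.

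The genes were chosen by their measured spread. Counts were turned into log2 CPM (counts divided by the library total and brought to a common size, after scaling by trimmed means of M values, TMM, on a log2 scale with a prior count of 2) for the 14013 of 26739 genes with at least 1 CPM in at least 5 libraries. Of these, 1887 had a mean from 50 to below 1000 CPM, here called the abundance limits. Plain CPM values, unlike log2 CPM, were divided by library totals alone, without TMM. From these 1887 genes the 200 with the smallest SD (standard deviation) of log2 CPM over the 10 libraries were taken. All 200 passed the filter on low counts, since the abundance limits lie far above it. The spread is therefore a description of the choice and was not tested.

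A liver is built mostly of hepatocytes, which make plasma proteins, handle sugars, fats and bile, and break down foreign compounds, and their metabolic genes change with feeding and the time of day. Genes for functions that every cell needs, often called housekeeping genes, are generally held at steadier levels, and some serve as reference genes to which other transcripts are scaled. Which functions these 200 genes serve was not analysed here: the tables hold identifiers without gene names, and a search of the 38438 RefSeq genes of assembly NfurGRZ-RIMD1 found 0 of the 26739 identifiers. For the same reason the liver label was not checked against marker genes, and no positions or sequences are given.

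The steadiest gene, Nfu_g_1_011585, lay at 7.11 log2 CPM in its lowest library, at a median of 7.21 and at 7.30 in its highest. These extremes were libraries 1 and 10, and the ratio between them was 1.14-fold. Its SD of 0.058 log2 units was 2.50 times the 0.023 that counting error alone would give at its depth of 2119 to 6463 reads per library. Without counting error its spread corresponds to a coefficient of variation of 3.66%. This SD was picked as the smallest of 1887 in these same libraries, under TMM scaling. With library totals alone the gene had 148.2 ± 15.8 CPM (SD, n = 10).

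Nfu_g_1_021348 was next, with a lowest value of 6.79 log2 CPM, a median of 6.90 and a highest of 7.05. It was lowest in library 10, where Nfu_g_1_011585 was highest, and highest in library 6. Nfu_g_1_003235 ranged from 6.10 through a median of 6.21 to 6.34 log2 CPM, with library 2 lowest and library 8 highest. Both differed by no more than 1.20-fold between their extreme libraries. Nfu_g_1_012224 and Nfu_g_1_019081 completed the 5 steadiest, with SDs of 0.086 and 0.090 log2 CPM. No single library was at the same extreme in all 5 genes. Each of these 5 genes was also among the 200 chosen after any 1 library was left out. The same held under each of 9 alternatives of scaling, thinning or measure of spread. These choices reuse the same libraries and start from the smallest SDs, so they are no independent check of steadiness.

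**Figure D1:**
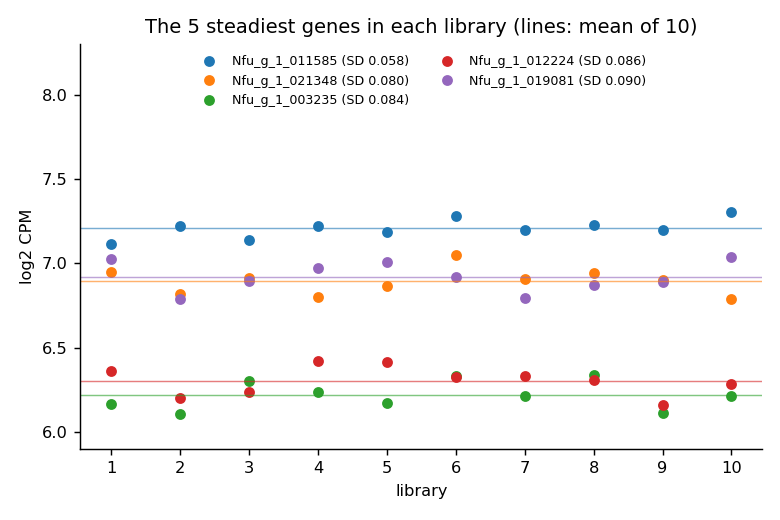
Log2 CPM (vertical axis) of the 5 genes with the smallest SD in each of the 10 libraries (horizontal axis). Points are single libraries and lines are each gene's mean of 10; every gene stays within 1.20-fold between its highest and lowest library.

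Over the 200 genes the SD of log2 CPM ran from 0.058 to 0.202, with a median of 0.169. The other 1687 genes within the abundance limits had a median of 0.409, and all tested genes had a median of 0.423. The highest library exceeded the lowest by 1.43-fold in the median gene of the 200 and by at most 1.64-fold. In the other genes within the limits the median ratio was 2.44-fold. A ratio below 1.5-fold was found in 153 of the 200 genes, against 6.02% of tested genes and 8.64% of genes within the limits. These values follow from the choice and are given as its description.

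The line between inside and outside was not a gap in the data. Nfu_g_1_005741, the last gene inside, had an SD of 0.2022 log2 CPM, and Nfu_g_1_004561, the first outside, had 0.2026. The last 10 inside spanned SDs of 0.1995 to 0.2022, and the first 10 outside spanned 0.2026 to 0.2058. Genes near rank 200 changed places easily: Nfu_g_1_005741 was chosen again in 1 of 10 turns with a library left out, and Nfu_g_1_004561 was chosen in 8.

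**Figure D2:**
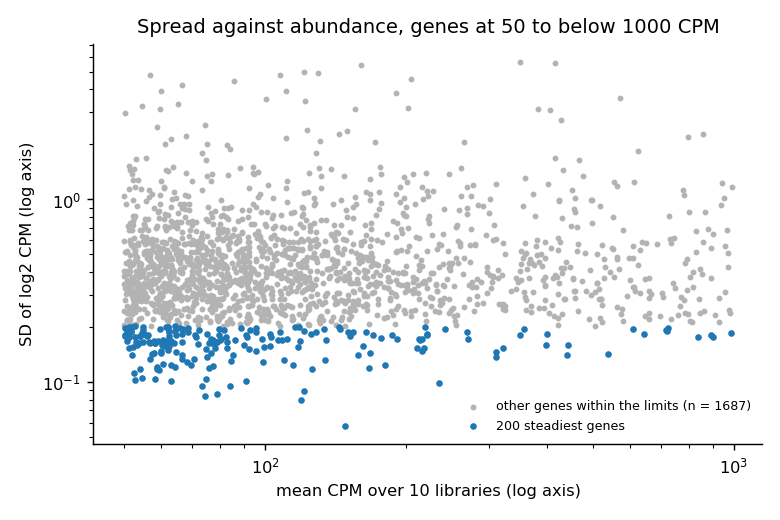
SD of log2 CPM over the 10 libraries (log axis) against mean CPM (log axis) for the 1887 genes within the abundance limits. Blue points are the 200 steadiest genes (SD at most 0.202) and grey points the other 1687; the blue points form the lower edge of 1 continuous cloud.

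Steady did not mean free of variation beyond counting. A member had between 1506 and 29295 reads per library on average, and never fewer than 605 in a library. Counting error at these depths gives an SD of 0.0316 log2 units in the median member, and the observed SD was 5.34 times larger in the median member and between 2.50 and 20.9 times larger in all. With counting error removed, the median member kept a coefficient of variation of 11.5%. All 200 genes exceeded a Poisson model of counting at a Benjamini-Hochberg adjusted p of 0.05 over all tested genes (Pearson chi-square test). So did 98.7% of tested genes and 100% of genes within the abundance limits, so that at these depths the test does not set the 200 apart.

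The genes were also examined in libraries that had no part in choosing them. For each library in turn, the 200 steadiest genes were chosen on the other 9 by the same rule, and the deviation of each gene in the library held out was taken from its mean over the other 9. The median absolute deviation of the chosen genes was 0.154 ± 0.049 log2 units (SD, n = 10 libraries), against 0.327 ± 0.069 for the other genes within the limits. The chosen genes deviated less in 10 of 10 libraries. Their deviation was 0.467 ± 0.077 times that of the other genes (SD, n = 10), from 0.337 times in library 8 to 0.596 times in library 1. The choices overlap, since any pair of turns shares 8 of the 9 libraries used, so these ratios are not independent and no test was made.

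Steadiness was smaller in a new library than in those used for the choice. Measured in the same way, the genes chosen on all 10 libraries deviated by a median of 0.129 ± 0.027 log2 units (SD, n = 10), less than the held-out value in 10 of 10 libraries. Those genes were chosen for a small spread that included the library measured, so their lower value largely follows from the choice. The gap was widest in library 1, with 0.252 held out against 0.176, and in library 6, with 0.222 against 0.170. In library 8 the held-out value was 0.106 and the other 0.102, so little was lost there.

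**Figure D3:**
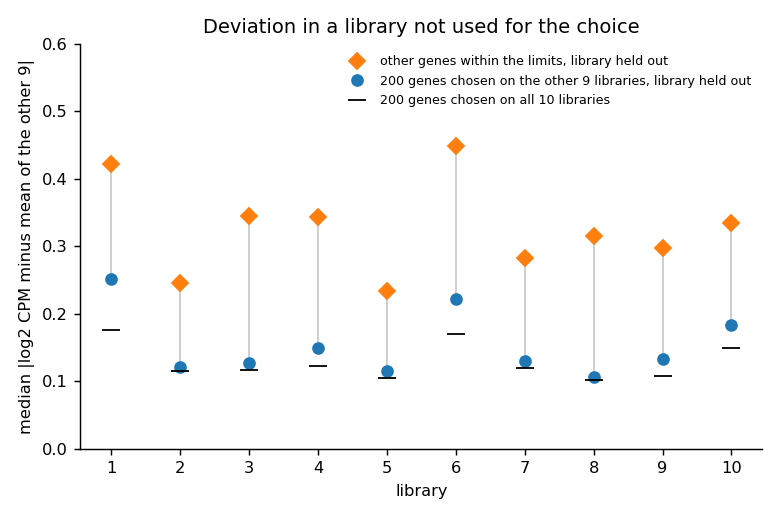
Median absolute deviation of log2 CPM from the mean of the other 9 libraries (vertical axis) in each library (horizontal axis). Blue circles are the 200 genes chosen without that library, orange diamonds the other genes within the abundance limits, and black dashes the 200 genes chosen with all libraries; every circle lies below its diamond and above its dash.

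Libraries 1 and 6 also decided most about which genes entered. Without library 1 or without library 6, 156 of the 200 genes were chosen again, and without library 10, 165 were. Without any of the other 7 libraries between 174 and 187 were. In all, 122 genes were chosen in every one of the 10 turns, and 17 in fewer than 5. Over the turns, 368 different genes were chosen at least 1 time.

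Libraries 1, 6 and 10 often held the extreme values of the 200 genes. Library 1 was the lowest library for 47 genes (23.5%), and library 6 was the highest for 40. In the other genes within the limits the shares were much alike, with library 1 lowest in 22.2% and library 6 highest in 22.1%. At the opposite ends, library 1 was the highest for 23 of the 200 genes (11.5%), against 13.6% of the other genes. Library 6 was the lowest for 21 (10.5%), against 15.9%. Library 10 was the highest library for 34 of the 200 genes (17.0%), against 9.66% of the other genes. Library 2 was the lowest for 30 (15.0%), against 5.57%. Library 7, the deepest with 39405713 counted reads, was the lowest for 27 (13.5%), against 8.54%. Library 10 was also the lowest for 30 (15.0%), against 14.6%. Libraries 2 and 10 were the shallowest, with 13806555 and 16888685 counted reads, and after all libraries were thinned to the depth of library 2 the rule still chose 180 of the 200 genes. That count concerns only which genes were chosen. The shares were not recomputed after thinning, so the part of depth in them was not tested.

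Single libraries far from the rest were uncommon. In 9 of the 200 genes (4.50%) 1 library stood apart by Dixon's criterion for 10 values, against 8.10% of tested genes and 9.54% of genes within the limits. The library that stood apart was library 1 in 4 of these genes, library 6 in 3, and libraries 8 and 10 in 1 each. The criterion divides the gap at the end by the range of the 10 values, but 1 library far from the rest also raises the SD. The genes were chosen on these same values, and what the choice contributes to this share was not tested.

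The levels of the 200 genes leaned to the lower end of the abundance limits. Their mean CPM had a median of 77.8, against 98.8 for the other genes. When the genes within the limits were put into 4 classes of like size by rising abundance, 15.0% of the lowest class (50.01 to 65.8 CPM) belonged to the 200. In the next classes the shares were 11.9%, 7.86% and 7.63%. The median SD of all genes was 0.369, 0.378, 0.398 and 0.377 log2 units in the 4 classes.

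Per length, the range was wide. Gene lengths were taken from the ratio of the deposited counts and RPKM values (reads scaled by gene length and library total), and all 200 genes had one. Of the lengths of tested genes, 51.6% were divisible by 3. Whether a length covers the whole transcript or only its coding part is not known here. Lengths and levels per length may therefore not be on 1 basis across genes. The median length was 3220 bases, against 3078 in the other genes within the limits. Members made up 12.1%, 8.69%, 10.8% and 10.8% of 4 classes of rising length. Nfu_g_1_010244 was the longest, at 16406 bases, and had the lowest level per length, at 3.13 ± 0.504 RPKM recomputed from the counts (SD, n = 10). The shortest was Nfu_g_1_016307, of 270 bases, with 395.7 ± 43.1 RPKM (SD, n = 10). In CPM these genes lay much closer, at 51.3 for Nfu_g_1_010244 and 106.8 for Nfu_g_1_016307.

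By CPM the most abundant of the 200 was Nfu_g_1_001478, a gene of 680 bases with 985.1 ± 75.8 CPM (SD, n = 10, library totals alone). Its TMM-scaled log2 CPM, whose spread is on another scale, ran from 9.67 in library 7 through a median of 9.99 to 10.20 in library 3. With at least 13819 reads in each library its counting error was 0.0089 log2 units, so its SD of 0.187 was nearly all beyond counting. The least abundant was Nfu_g_1_003806, with 50.2 ± 6.23 CPM (SD, n = 10, library totals alone) and TMM-scaled values from 5.45 through a median of 5.56 to 5.96 log2 CPM, highest in library 4.

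Summed over the 200 genes, their reads made up 2.78 ± 0.186% of a library (SD, n = 10). The share was lowest in library 1, at 2.396% (exact 95% interval 2.390 to 2.401%), and highest in library 6, at 3.06% (3.06 to 3.07%). These intervals cover counting error only. The 200 genes chosen with column totals alone held 4.62%. The TMM factors, by which each library total is multiplied before CPM is taken, were 0.885 in library 1 and 1.10 in library 6, and they ran from 0.872 in library 4 to 1.12 in library 7.

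After TMM scaling the median of the 200 genes lay near the gene means in each library. The genes were chosen for a small spread under this same scaling, so a median near 0 follows from the choice and is no check of TMM. The median deviation from the gene means was lowest in library 7, at -0.083 log2 units, and highest in library 4, at 0.051, a span of 0.134 units. Within a library the deviations of the 200 genes had SDs of 0.124 to 0.196 around it, wider than any of these medians. The other genes within the limits spanned 0.233 units, from -0.13 in library 1 to 0.11 in library 4, and their median had the same sign as that of the 200 in 9 of 10 libraries. The median of all tested genes spanned only 0.061 units. In library 1 it lay at 0.046 while the 200 lay at -0.057.

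**Figure D4:**
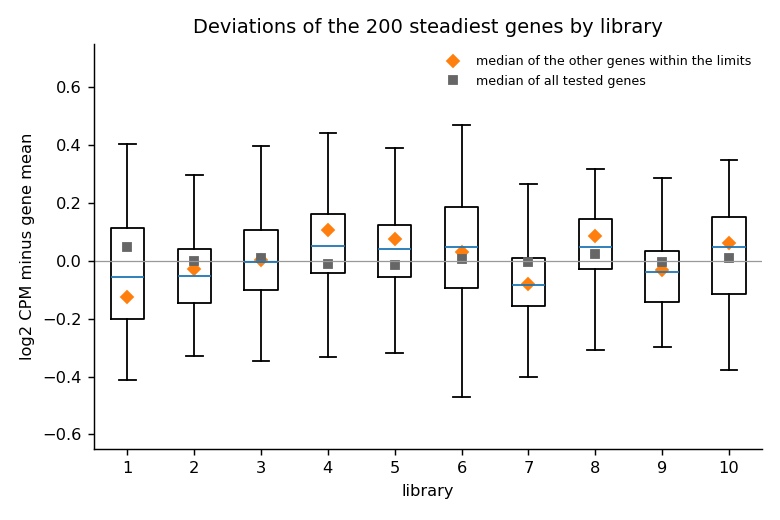
Deviation of log2 CPM from each gene's mean (vertical axis) by library (horizontal axis) for the 200 genes. Boxes span the 25th to 75th percentile, the blue line is their median and whiskers reach the extremes; orange diamonds are the medians of the other genes within the abundance limits and grey squares those of all tested genes, which lie nearer 0 than the diamonds in most libraries.

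The variation that was left in the 200 genes was divided among several patterns, as was that of the larger sets, where the first pattern held more. The first principal component of the 200 genes held 25.7% of their variance, the second 20.4% and the third 15.9%. Among all genes within the limits the first held 42.0%, and among all tested genes 30.3%. In these shares genes with a large SD weigh most, and the 200 were chosen for a small SD. With each gene scaled to unit SD the first held 24.3% in the 200, 34.5% within the limits and 31.8% among tested genes. Pairs of the 200 genes had a median correlation of 0.09 over the 10 libraries (19900 pairs), against 0.02 for pairs of the other genes within the limits. Correlations above 0.8 were found in 1.66% of pairs, against 4.35% in the other genes, and those below -0.8 in 0.372%, against 2.08%. These pairs share the same 10 libraries and their scaling, and the values are descriptions.

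The first component ran between libraries 6 to 9, with scores from 0.86 to 1.89, and libraries 1 to 5, with scores from -1.24 to -0.86, while library 10 lay between at -0.19. A correlation above 0.6 with it was found in 26 genes and one below -0.6 in another 26, and the other 148 lay between. The genes high in libraries 6 to 9 had a median length of 3815 bases and a median of 72.8 CPM. Those low in libraries 6 to 9 were shorter and more abundant, with medians of 2226 bases and 124 CPM. These 2 sets were picked by their correlation and were not tested.

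The numbers in the sample titles skip 1 value between libraries 5 and 6, and the labels do not say what they stand for. No overlap between libraries 1 to 5 and libraries 6 to 10 was seen for 11 of the 200 genes (5.50%), against 16.2% of tested genes and 19.5% of genes within the limits. Libraries 1 to 5 were the lower ones in 8 of the 200 (against 9.58% of tested genes and 12.5% within the limits) and the higher ones in 3 (against 6.60% and 7.05%). Among the 11, the means differed by 0.20 to 0.32 log2 units, whereas over the other genes within the limits the difference reached -4.17 and 2.68. Such a parting depends on the order of the values, but a wide parting also raises the SD, which the rule kept small. The genes were chosen on these same values, and what the choice contributes to the lower share was not tested. With 1 library left out, the newly chosen genes that parted numbered 14 to 22. Without libraries 2, 4, 5, 6 and 10 in turn they numbered 18, 21, 19, 18 and 22. Fewer libraries overlap less often, and the genes were also chosen anew. The share over all tested genes was not computed with a library left out, so these counts are not read as a result about the 200. Within libraries 1 to 5 and within libraries 6 to 10 the median SD of the 200 genes was 0.142 in each, against 0.2999 and 0.321 in the other genes within the limits. A small SD over all 10 libraries limits the SD within each set of libraries, so this difference largely follows from the choice.

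Grouped by correlation (average linkage, height 0.3), the 200 genes formed 68 groups, and only 1 of them held at least 10 genes. Its 13 genes included Nfu_g_1_001478. They were lowest in libraries 7, 6 and 9, with median deviations of -0.27, -0.23 and -0.18 log2 units, near 0 in library 8 and between 0.06 and 0.15 in the others. Their median level was 222 CPM, from 51.8 to 985, and their median length 1610 bases, from 345 to 11737. Of the 13 genes, 8 lay above the median CPM of the 200 and 9 were shorter than their median length. The median of their levels per length was 324 RPKM, against 31.0 for all 200. At both ends the deviations of the group ran opposite to the TMM factors. Libraries 7, 6 and 9 had the largest factors, at 1.12, 1.10 and 1.10. Libraries 4 and 1 had the smallest factors, at 0.872 and 0.885. The group was highest in these libraries, with median deviations of 0.15 and 0.14 log2 units. What the scaling contributes to this pattern was not tested. The group was found in these same values, and its make-up was not tested.

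How much of the set was chosen again differed between scalings and between measures of spread. With DESeq2's median-ratio size factors 188 of the 200 genes were chosen again, and with upper-quartile factors 174. With column totals alone, and no further scaling, 118 were. A measure that needs no library scaling, the mean SD of a gene's log ratio to every other gene within the limits, chose 168. Ranking by the coefficient of variation chose 191, by DESeq2's gene-wise dispersion (spread beyond counting) 189 and by the range of log2 CPM 176. Ranking by the median absolute deviation, which gives extreme libraries little weight, chose 111. Of the 200 genes, 55 were chosen in all of 9 alternatives of scaling, thinning or measure of spread and also without each library in turn.

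**Figure D5:**
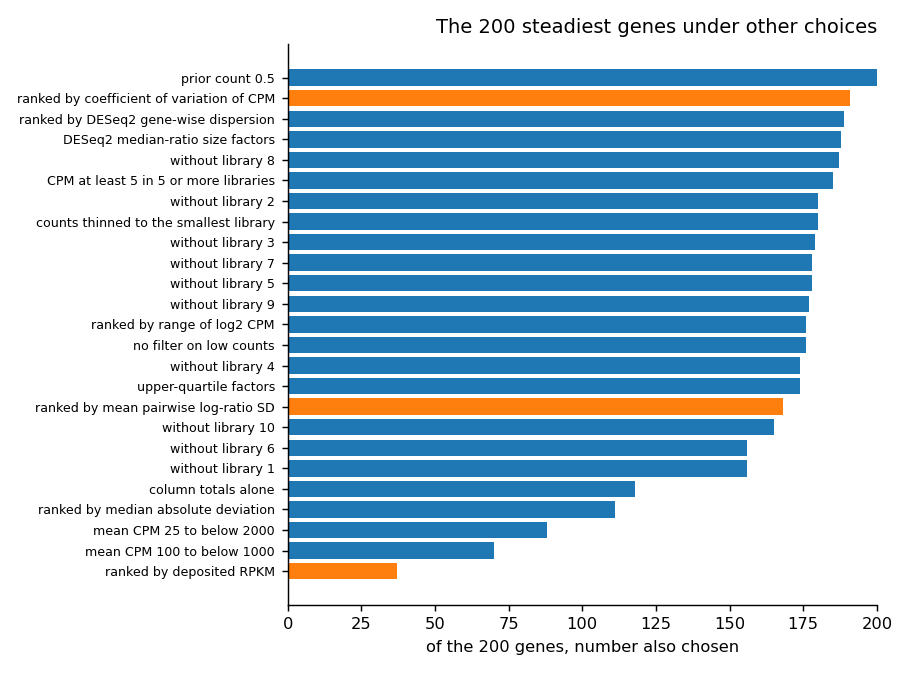
Number of the 200 genes (horizontal axis, from 0 to 200) that were chosen again under each other scaling, filter, ranking, abundance limit or with 1 library left out. Blue bars are alternatives listed at the outset and orange bars those added later. Leaving out library 1 or 6 keeps 156, column totals alone 118 and the deposited RPKM values 37. The deposited RPKM values do not match scaling by each library's own total.

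In the deposited RPKM table the same genes did not appear steady. Their median SD of log2 RPKM (pseudocount 0.5) was 0.73, against 0.84 for the other genes within the limits, and the highest value of a gene exceeded its lowest by 1.58-fold to 11.04-fold. Recomputed from the counts with each library's own total, the median SD was 0.19 for the 200 genes and 0.42 for the others. For the steadiest gene, Nfu_g_1_011585, the deposited values differed by 4.96-fold between libraries. The gene length implied by each count and RPKM value varied over the libraries by a median of 52.0% with the library's own total, but by only 0.00104% if each row steps on to the next of the 10 totals in turn. The deposited RPKM values thus match division by totals taken in rotation, not by each library's own total. Their spread between libraries is therefore not a measure of steadiness. Ranked by the deposited RPKM, 37 of the 200 genes were among the 200 steadiest, and ranked by the recomputed RPKM, 119 were.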

How the data were processed

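Liver RNA of 10 libraries was sequenced from TruSeq libraries, per the labels' protocols. The authors deposited whole-number read counts per gene, and the submitters' processing notes name bcl2fastq 1.8.4, STAR 2.4.1d and featureCounts 1.4.6-p4. The build, annotation and strand setting were not given in the sources used here; reads of overlapping or near-identical genes may be miscounted. Deposited RPKM values from the authors were used only for gene lengths and for the comparison at the end of the results. The lengths were computed with library totals in rotation down the rows. Depth ran from 13806555 to 39405713 counted reads, and a count of 3, the limit that a count of 0 allows, was 0.0761 to 0.217 CPM.

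Log2 CPM came from edgeR 4.0.16 (limma 3.58.1, R 4.3.3), with DESeq2 1.42.0 for alternatives and Python 3.11.15 for figures. No contrast between groups exists, so no test of change was made. The Poisson test used TMM-scaled totals. Repeat deposits of 1 library were not found (chi-square per degree of freedom at least 52.3 over 45 pairs). The ranking by spread, the held-out ratio and the Poisson test were tried on simulated data, and the other steps were not. The genes and the analyses were chosen with earlier results of these data known. Identifiers named are the 5 smallest SDs, the extremes of CPM and length, and the genes on either side of the threshold. The planned gene lists and marker lists could not be used, since no identifier was paired with a symbol.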

Additional observations from a re-analysis of the deposited data

Results flagged for a closer look

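Of 19 per-library values and named genes examined for a single library far from the other 9 (share of counts, median deviation, spread, held-out deviation and ratio, component score, depth, the co-varying group of 13 genes and 11 identifiers), 0 passed Dixon's criterion for 10 values. About 1 in 20 would by chance if values were normally distributed.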

How the results depend on the processing

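Each alternative chose its genes anew. Of the 200 genes, 118 were chosen again with column totals alone, 111 by median absolute deviation, 88 with limits of 25 to below 2000 CPM, 70 with limits of 100 to below 1000 CPM, and 37 by deposited RPKM. With 100 genes chosen, by construction all 100 were among the 200. The 70 are by construction all of the 200 with a mean of at least 100 CPM, since the same SDs were ranked among fewer genes. Under the wider limits the same SDs were ranked among more genes, which could displace some of the 200. Other alternatives with all libraries kept 168 to 200, and leaving out 1 library kept 156 to 187. The median SD was 0.143 and 0.222 under the wider and the higher limits, 0.190 by median absolute deviation, 0.146 and 0.202 with 100 and 400 genes, and 0.154 to 0.173 with 1 library left out. Wider limits or fewer genes can by construction only lower this median, and higher limits or more genes can only raise it. The share of counts was 4.62% with column totals alone, 2.99% after thinning, 3.26% with no filter and 2.61 to 3.35% with 1 library left out. The first component held 31.3% with column totals alone and 24.9 to 28.6% with 1 library left out. The held-out ratio moved by less than its SD over libraries under all 9 alternatives run. Genes beyond counting noise numbered 199 or 200 under each. Parted genes numbered 14 to 22 with 1 library left out, where fewer libraries overlap less by construction and the genes were also chosen anew. The share over all tested genes was not computed there. The deposited RPKM values match division by library totals in rotation, so the 37 genes are no measure of how stable the set is. For the other alternatives, where no construction is named, the cause was not tested. The rankings by log ratios, by coefficient of variation and by deposited RPKM, and the centred deviations, were added after seeing the data. No paired analysis was possible because all samples belong to a single group.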
